A study of Mus musculus with 5 samples.

Results

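Nectin3 and Cd96 are nearby genes of mouse chromosome 16 that encode cell-surface proteins of the immunoglobulin superfamily. Their contacts with a bait in the Dppa2/4 domain were read on each parental allele by 4C-seq. Nectin3 and Cd96 are 2 of 679 protein-coding genes of the chromosome. Both genes were chosen by the allele difference in earlier results of these same libraries, Nectin3 for a lower and Cd96 for a higher signal on the 129 allele. The allele ratios are therefore given as a description, with no test. Each gene was taken as its RefSeq gene body (GRCm38.p6, the same build as mm10) with 5 kb on both sides. Nectin3 (Gene ID 58998; chromosome 16, 46387665 to 46498535, 110871 bases) covered 25 windows of 5 kb, and Cd96 (Gene ID 84544; 46035652 to 46120248, 84597 bases) covered 20. Those are 45 of the 19632 windows of chromosome 16 in the table.

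The libraries came from 2 clones, A6 and E2, of a Cas/129 hybrid embryonic stem cell line grown in 2i plus LIF. In 4C-seq, chromatin is crosslinked, cut with HindIII and ligated, so that fragments that lay near the bait are joined to it and can be amplified from it. The groups compared are the 129 allele (the columns named svim, read here as 129) and the CAST allele (Mus castaneus) within each clone, so the 2 alleles of a clone come from the same library. Both clones carry the same CRISPR deletions of 3 labelled intervals near the bait. Windows wholly inside the second interval held 6 reads on 129 against 7361 on CAST for clone A6, and 8 on 129 against 13326 on CAST for clone E2, and those inside the third held 1 on 129 against 2519 on CAST for clone A6, and 5 on 129 against 7039 on CAST for clone E2. The 129 allele therefore has almost no reads in these 2 intervals, while no window lay wholly inside the first. Each clone is a single line and no unedited hybrid library is analysed here, so strain and deletion cannot be told apart in any 129 to CAST difference. The 4 columns held 1311580 to 2397572 recovered reads, 311368 to 591918 of them on chromosome 16. The 129 columns held 60.0% of the chromosome 16 reads of A6 and 60.5% of those of E2. Read counts are given unscaled and so favour 129, whose columns hold more reads, and why they do was not tested. Every log2 ratio is of RPM, so a ratio can be below 0 where 129 has more reads. Expression was not measured, so the labelled cell type could not be checked against markers.

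Nectins are adhesion molecules of the adherens junction that bind each other across neighbouring cells and attach through afadin (Afdn) to actin. Nectin3 binds Nectin1 and Nectin2 on the cell opposite. Cd96, also called Tactile, is a receptor of T and natural killer cells that binds the nectin-like protein Pvr, a ligand it shares with the receptors Tigit and Cd226. The 2 genes thus belong to one adhesion and recognition system, although Nectin3 is found widely, as in epithelia and neurons, and Cd96 mainly in lymphocytes. 4C-seq measures how often a fragment is joined to the bait and says nothing of the activity of either gene.

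The bait primers listed for both clones are shown because every value is a contact with the fragment they amplify. The forward primer ends in AAGC (capitals), the first bases of the HindIII site AAGCTT. The primers were not placed on a genome sequence here, and the protocol in the labels names other primers, in a cloning vector. The bait was taken to lie at the centre, 48345000, of a gap of 50 kb without windows.
Forward: tttgggattttggagtgAAGC
Reverse: ctgctggacttgtcaactgaa

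The promoters of the 2 genes (RefSeq, GRCm38.p6, 300 bases each, both on the minus strand) are shown because neither holds a HindIII site and neither promoter window held a read. Capitals mark the DpnII site GATC, which the Cd96 promoter holds once and the Nectin3 promoter does not. Both strands read the same for these palindromic sites. Among 32851 mouse promoters of this length, 7.45% hold AAGCTT and 48.0% hold GATC. Of the 19632 windows of chromosome 16, only 4891 held reads, so an empty window was the usual case. Whether the empty promoter windows have to do with the missing HindIII sites was not tested. The Nectin3 entry lies at chr16:46496918-46497217 and the Cd96 entry at chr16:46120199-46120498.
Nectin3: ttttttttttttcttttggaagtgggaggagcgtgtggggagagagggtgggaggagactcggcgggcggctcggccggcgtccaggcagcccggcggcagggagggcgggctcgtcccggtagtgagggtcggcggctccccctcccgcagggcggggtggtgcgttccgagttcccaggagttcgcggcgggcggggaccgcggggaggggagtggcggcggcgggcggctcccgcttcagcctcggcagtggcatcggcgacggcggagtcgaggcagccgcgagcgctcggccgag
Cd96: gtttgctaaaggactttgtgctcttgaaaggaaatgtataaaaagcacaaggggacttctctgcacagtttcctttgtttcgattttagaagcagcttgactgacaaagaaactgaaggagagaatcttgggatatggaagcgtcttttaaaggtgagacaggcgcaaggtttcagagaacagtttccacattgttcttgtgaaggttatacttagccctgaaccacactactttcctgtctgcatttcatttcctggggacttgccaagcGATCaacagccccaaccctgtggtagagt

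The windows that contain these promoters, 46495001 to 46500000 for Nectin3 and 46120001 to 46125000 for Cd96, had 0 reads of their own in all 4 columns. A count of 0 allows up to 3 reads, or 1.53 RPM on 129 against 2.27 RPM on CAST for clone A6, and 1.24 on 129 against 1.86 RPM on CAST for clone E2. The deposited values at the same windows were far from 0, because each deposited value is a running mean over 30 windows. At the Nectin3 promoter the deposited RPM (reads scaled to the column's total) was 43.4 on 129 against 41.5 on CAST for clone A6, and 56.3 on 129 against 57.3 on CAST for clone E2, while at the Cd96 promoter it was 86.9 on 129 against 44.5 on CAST for clone A6, and 54.7 on 129 against 45.1 on CAST for clone E2. Those values came entirely from neighbouring windows. Values are therefore given below both as deposited and as own reads, which are the whole reads of each window after the running mean was undone.

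Nectin3 had less signal on the 129 allele than on CAST in both clones. Its mean deposited RPM per window was 57.3 on 129 against 90.5 on CAST for clone A6, and 49.9 on 129 against 98.3 on CAST for clone E2. The 129 values were the lower pair and did not overlap the CAST values. They averaged 53.6 ± 5.19 RPM on 129 and 94.4 ± 5.52 RPM on CAST (SD, n = 2 each), and the log2 ratio of 129 to CAST within a clone was -0.66 in A6 and -0.98 in E2, a mean of -0.82 ± 0.22 (SD, n = 2). Own reads gave almost the same picture, with 2863 reads on 129 against 3237 on CAST for clone A6, and 3028 on 129 against 4015 on CAST for clone E2. Scaled to RPM per window these were 58.4 on 129 against 98.0 on CAST for clone A6, and 50.0 on 129 against 99.5 on CAST for clone E2, a mean log2 ratio of -0.87 ± 0.17. The 129 share of the Nectin3 reads was 46.9% for clone A6 (Wilson 95% limits 45.7 to 48.2%) and 43.0% for clone E2 (41.8 to 44.2%), below the share of the whole chromosome in the same clone. These limits, here and below, cover counting error only and treat every read as independent. PCR copies of a molecule cannot be recognised here, so the limits may be too narrow. They do not cover the spread between clones and are not a test of the difference.

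The reads of Nectin3 sat in 16 of its 25 windows. Of the 14 with at least 10 reads on an allele summed over the clones, 8 reached 10 on both alleles, 4 on 129 only and 2 on CAST only. The allele that did not reach 10 could still hold a few reads, as in the window at 46480001 to 46485000, with 2 on 129 against 11 on CAST for clone A6, and 3 on 129 against 4 on CAST for clone E2. Over chromosome 16, 27.8% of 3977 such windows reached 10 on both alleles, 44.9% on 129 only and 27.3% on CAST only. Of the 8 shared Nectin3 windows, 4 were lower on 129 in both clones, 0 were higher in both and 4 split the clones. Within the shared windows, 46440001 to 46445000 held 263 reads on 129 against 584 on CAST for clone A6, and 343 on 129 against 578 on CAST for clone E2. The window at 46390001 to 46395000 split the clones, with 684 on 129 against 438 on CAST for clone A6, and 722 on 129 against 1000 on CAST for clone E2. At 46460001 to 46465000 the counts were 23 on 129 against 169 on CAST for clone A6, and 190 on 129 against 305 on CAST for clone E2. Of the 4 windows lower on 129 in both clones, those at 46440001 and 46460001 lie in the gene body, and the other two lie in its flanks.

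A single window carried a large part of the Nectin3 difference. The window at 46405001 to 46410000 held 0 reads on 129 against 1088 on CAST for clone A6, and 0 on 129 against 646 on CAST for clone E2, so it was read on CAST alone in both clones. Without it the own-read log2 ratio of Nectin3 was -0.45 ± 0.41, with -0.16 in A6 and -0.74 in E2. Windows that reached 10 reads on 129 only pulled the other way. The window at 46385001 to 46390000 held 602 and 131 reads on 129 in A6 and E2 and 0 on CAST in both, and without it the log2 ratio was -1.07 ± 0.02. Over windows with at least 10 reads on both alleles the ratio was -0.87 ± 0.27. Whether the windows without reads on an allele can be read on it at all was not tested.

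The choice of border also touches Nectin3. Just outside the 5 kb flank, the window at 46375001 to 46380000 held 1 read on 129 against 615 on CAST for clone A6, and 6 on 129 against 935 on CAST for clone E2. Just inside it, the window at 46380001 to 46385000 held 553 on 129 against 658 on CAST for clone A6, and 149 on 129 against 495 on CAST for clone E2. On the side towards the bait, the last window inside held 55 reads on 129 against 46 on CAST for clone A6, and 23 on 129 against 136 on CAST for clone E2. The next one outside held 23 on 129 against 2 on CAST for clone A6, and 31 on 129 against 9 on CAST for clone E2, and the one after it, at 46510001 to 46515000, was again lower on 129, with log2 ratios of -0.71 and -0.47. The CAST excess thus went on past the far border of the gene, and the direction alternated between windows at the near border.

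Cd96 had more signal on the 129 allele than on CAST in both clones. Its mean deposited RPM per window was 74.0 on 129 against 32.0 on CAST for clone A6, and 49.0 on 129 against 29.6 on CAST for clone E2. Both 129 values lay above both CAST values. The means were 61.5 ± 17.7 RPM on 129 and 30.8 ± 1.69 RPM on CAST (SD, n = 2 each), so the 129 values varied more between clones. The log2 ratio was 1.21 for A6 and 0.73 for E2, a mean of 0.97 ± 0.34. In own reads Cd96 held 3422 on 129 against 772 on CAST for clone A6, and 2825 on 129 against 615 on CAST for clone E2. The own-read log2 ratio was 1.58 for A6 and 1.61 for E2, a mean of 1.60 ± 0.02, larger than the deposited one and nearer between clones. The 129 share of the reads was 81.6% for clone A6 (Wilson 95% limits 80.4 to 82.7%) and 82.1% for clone E2 (80.8 to 83.4%).

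The deposited values of Cd96 also drew unequally on its surroundings. Of the deposited 129 signal over Cd96, 74.7% in A6 and 74.5% in E2 came from its own windows, against 57.8% and 40.6% of the CAST signal. For Nectin3 these shares were 63.5% and 67.3% on 129 and 73.1% and 66.5% on CAST. The share of the deposited level that came from the surroundings was thus larger for Cd96 on CAST than for the other allele or for Nectin3.

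Reads in Cd96 were confined to 7 of its 20 windows. Summed over the clones, 4 windows reached 10 reads on both alleles, 2 on 129 only and 0 on CAST only. Those of 129 only were 46035001 to 46040000, with 397 reads on 129 against 0 on CAST for clone A6, and 424 on 129 against 1 on CAST for clone E2, and 46105001 to 46110000, with 465 on 129 against 0 on CAST for clone A6, and 823 on 129 against 0 on CAST for clone E2. Of the shared windows, 3 were higher on 129 in both clones. At 46045001 to 46050000 the reads were 509 on 129 against 24 on CAST for clone A6, and 894 on 129 against 129 on CAST for clone E2. At 46085001 to 46090000 they were 1024 on 129 against 362 on CAST for clone A6, and 388 on 129 against 209 on CAST for clone E2. The window at 46110001 to 46115000 split the clones, with 607 on 129 against 377 on CAST for clone A6, and 202 on 129 against 269 on CAST for clone E2. Over windows with at least 10 reads on both alleles the log2 ratio was 0.97 ± 0.27. Leaving out each window in turn gave own-read log2 ratios from 1.24 to 2.30. The closeness of the clones depended on the windows taken in. Without 46105001 to 46110000 they were at 1.37 in A6 and 1.12 in E2, and without 46045001 to 46050000 at 1.39 and 1.40. The windows of 129 only gave 25.2% of the 129 reads in A6 and 44.1% in E2. Whether they can be read on CAST at all was not tested. The outermost windows of Cd96 with its flanks held no reads, and on the side away from the bait the nearest window outside with reads, at 46025001 to 46030000, held 41 on 129 against 8 on CAST for clone A6, and 58 on 129 against 7 on CAST for clone E2. On the side towards the bait the nearest one, at 46135001 to 46140000, was higher on CAST, with 301 on 129 against 517 on CAST for clone A6, and 472 on 129 against 555 on CAST for clone E2.

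**Figure D1:**
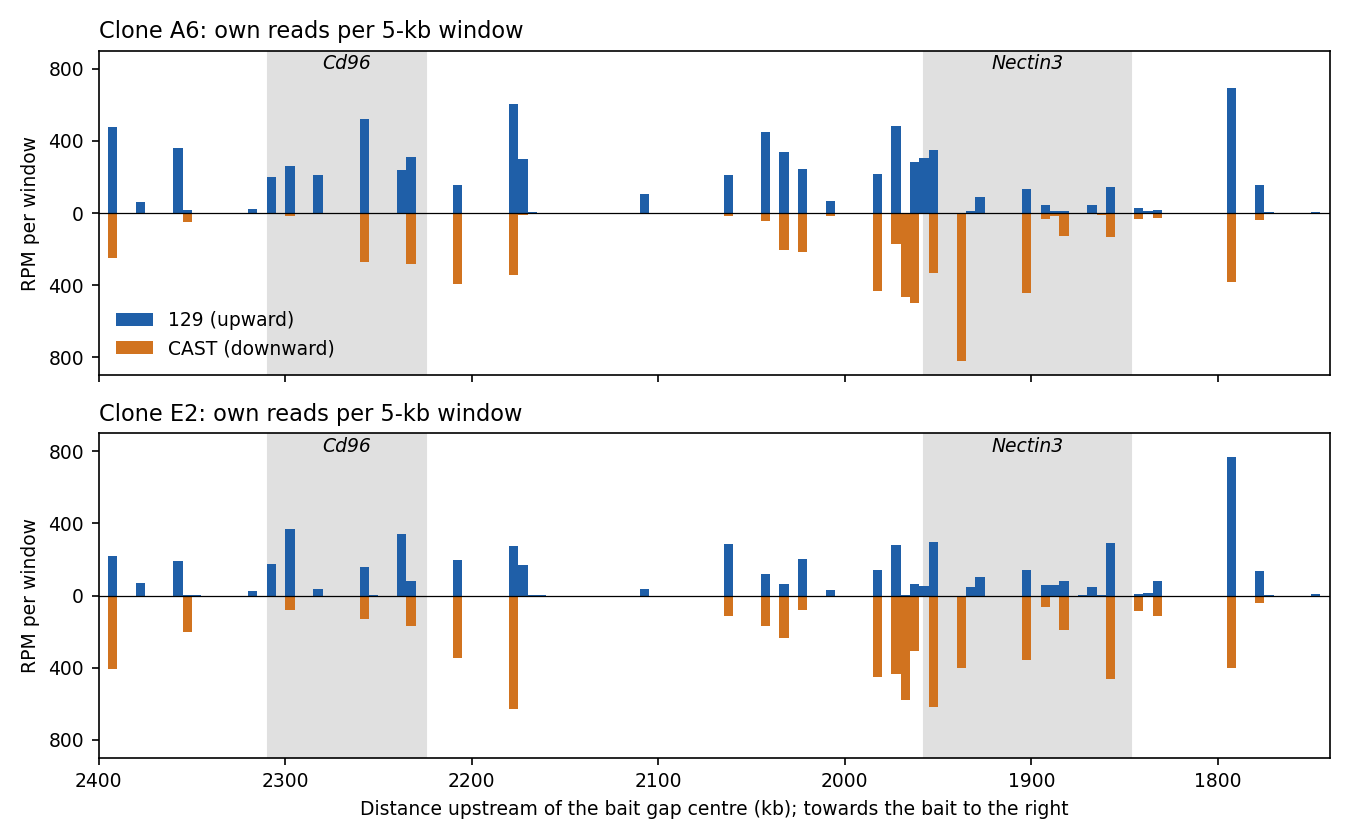
Own reads per 5-kb window in RPM (y axis) against distance upstream of the bait gap centre in kb (x axis), with 129 drawn upward and CAST downward, for clone A6 (top) and clone E2 (bottom); grey bands are the gene bodies. Cd96 carries mostly 129 reads, while Nectin3 holds the highest CAST window drawn for A6, with 0 reads on 129 and 1088 on CAST.

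Set side by side per window in own reads, Nectin3 averaged 54.2 ± 5.96 RPM on 129 and 98.8 ± 1.08 RPM on CAST, and Cd96 averaged 72.8 ± 20.5 RPM on 129 and 24.1 ± 7.18 RPM on CAST (SD, n = 2 each). Nectin3 on CAST was the highest of these levels, followed by Cd96 on 129, Nectin3 on 129 and Cd96 on CAST. On 129 the values were 87.3 and 58.3 RPM for Cd96 and 58.4 and 50.0 RPM for Nectin3 in A6 and E2. Their ranges overlapped, while within each clone Cd96 was the higher. As deposited, the log2 level of Nectin3 over that of Cd96 on 129 was -0.37 in A6 and 0.03 in E2. The log2 level of Nectin3 over that of Cd96 in own reads was -0.58 in A6 and -0.22 in E2 on 129, against 1.75 in A6 and 2.38 in E2 on CAST, so the genes stood apart on CAST. As folds, Nectin3 on CAST was 3.35 times Cd96 in A6 and 5.22 times in E2. Over windows with reads on both alleles these log2 values were -1.28 and -0.40 on 129, against 0.60 and 1.58 on CAST. The Cd96 minus Nectin3 difference of the deposited allele log2 ratios was 1.87 for A6 and 1.70 for E2, a mean of 1.79 ± 0.12. This difference joins 2 genes that were chosen for their opposite directions.

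**Figure D2:**
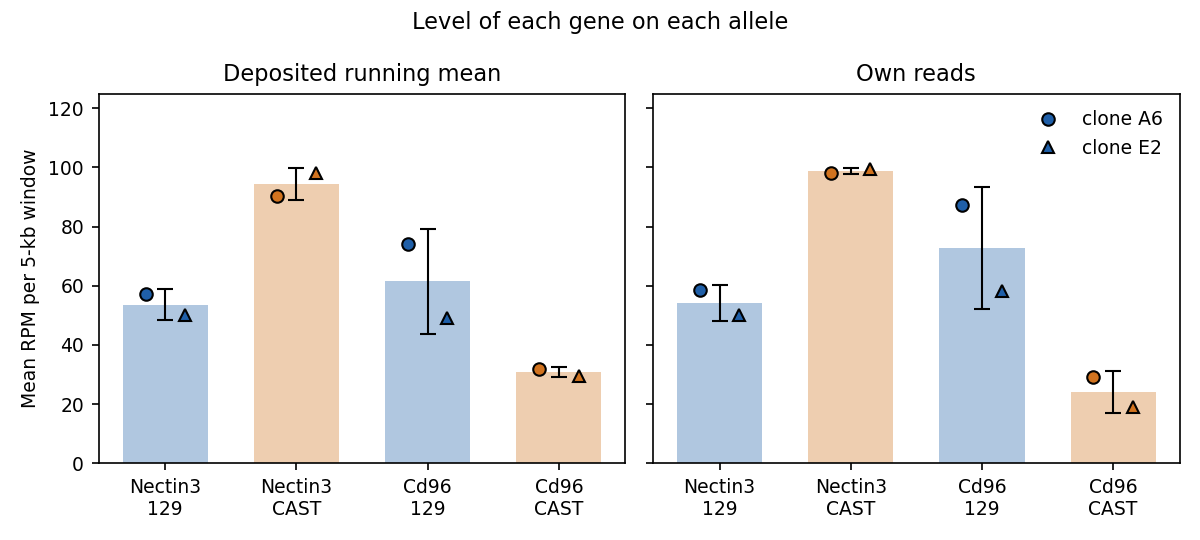
Mean RPM per 5-kb window (y axis) of Nectin3 and Cd96 on 129 (blue) and CAST (orange), as deposited (left) and in own reads (right); bars are means, whiskers SD over 2 clones, circles clone A6 and triangles clone E2. In own reads Nectin3 is at 54.2 RPM on 129 and 98.8 RPM on CAST, and Cd96 at 72.8 RPM on 129 and 24.1 RPM on CAST.

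Within each gene the allele ratio changed along its length. Both genes lie on the minus strand, so the part farther from the bait holds the 3′ end and the part nearer to it the 5′ end. In the far part of Cd96 the own reads were 1324 on 129 against 31 on CAST for clone A6, and 1410 on 129 against 133 on CAST for clone E2, log2 ratios of 4.85 and 2.82. In its near part they were 2098 on 129 against 741 on CAST for clone A6, and 1415 on 129 against 482 on CAST for clone E2. The near log2 ratios were 0.93 and 0.97. The far part of Cd96 was thus almost without CAST reads, and the clones differed most there. The near part includes the window at 46105001 to 46110000, with 465 of its 129 reads in A6, 823 in E2 and 0 CAST reads in both. Whether the near match between clones holds without it was not tested. Of the shared near windows, 46085001 to 46090000 was higher on 129 in both clones. The other, 46110001 to 46115000, split them, with 607 on 129 against 377 on CAST for clone A6, and 202 on 129 against 269 on CAST for clone E2. In the far part of Nectin3 the reads were 2296 on 129 against 2769 on CAST for clone A6, and 1706 on 129 against 2724 on CAST for clone E2, with log2 ratios of -0.84 and -1.26. In its near part the log2 ratios were -0.29 and -0.55, from 567 reads on 129 against 468 on CAST for clone A6, and 1322 on 129 against 1291 on CAST for clone E2. All 4 Nectin3 values were below 0, and the far part was the lower of the 2 parts in each clone. In A6 this order rested on the CAST window at 46405001 to 46410000, without which the far part was at -0.12 in A6 and -0.87 in E2. The sign of the near part in A6 rested on the window at 46460001 to 46465000, with 23 reads on 129 against 169 on CAST. The near window with most reads, at 46485001 to 46490000, was at 0.16 in A6 and -0.67 in E2.

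Between and around the 2 genes the clones often disagreed. The 50 windows between them had own-read log2 ratios of 0.45 for A6 and -0.75 for E2. They include Gm4737, which held 0 own reads. Plcxd2, a gene named for a phospholipase C X domain and next to Cd96 on the side away from the bait, had 1799 reads on 129 against 398 on CAST for clone A6, and 1184 on 129 against 983 on CAST for clone E2, log2 ratios of 1.61 and -0.32. As deposited, Plcxd2 was above 0 in both clones, at 1.31 in A6 and 0.44 in E2. In own reads Cd96 itself, with 1.58 and 1.61, was flanked by stretches in which E2 went the other way. Beyond Nectin3 towards the bait, the next 21 windows were higher on 129 in both clones, at 0.97 and 0.84. On that side the next protein-coding gene, Gm52257, lies 0.285 Mb from the bait and held 0 own reads. Nectin3 thus lay between a stretch with clones on opposite sides of 0 and a stretch whose pooled ratio was above 0 in both clones. Over 355 windows from 1 to 3 Mb upstream, without the 2 genes, the own-read log2 ratio was 0.60 for A6 and 0.43 for E2. Nectin3 was below this surrounding value in both clones and Cd96 above it.

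**Figure D3:**
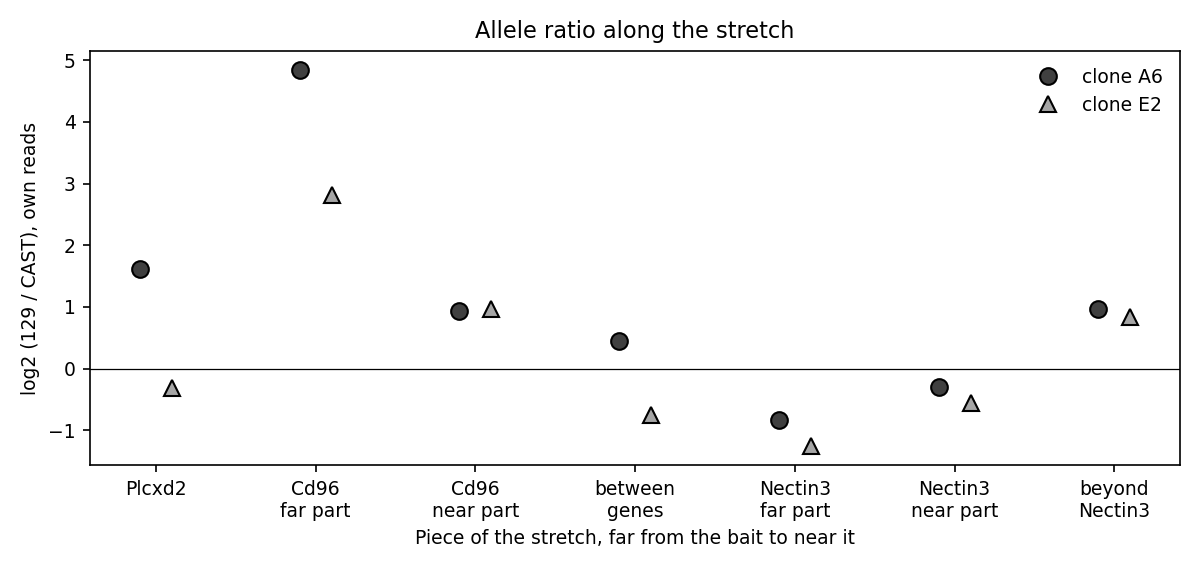
Own-read log2 ratio of 129 to CAST (y axis) in consecutive pieces of the stretch from Plcxd2 to beyond Nectin3 (x axis, far from the bait to near it), for clone A6 (circles) and clone E2 (triangles); each gene is split at its midpoint. The ratio is highest in the far part of Cd96, at 4.85 and 2.82, below 0 in both clones in both parts of Nectin3, and 0.97 and 0.84 beyond it. The sign of the near part of Nectin3 in A6 rests on the window at 46460001 to 46465000. Most reads of the piece beyond Nectin3 lie in a single window.

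Across chromosome 16, non-overlap of the alleles was common. Of 247 protein-coding genes with at least 10 own reads in each column, 62 (25.1%) had both deposited 129 values above both CAST values, as Cd96 did, and 82 (33.2%) had both below, as Nectin3 did. In own reads these counts were 41 and 83. The median deposited log2 ratio over the 247 genes was -0.07, with quartiles at -0.98 and 0.66. By this mean ratio 37 genes were higher than Cd96 and 73 were lower than Nectin3. The same contrast chose the 2 genes, so their place in this list is a description. As an alternative on the own reads, edgeR's quasi-likelihood test with clone as a term and Benjamini-Hochberg adjustment at 0.05 called 26 of the 247 genes (10.5%), 10 higher and 16 lower on 129. Its values for Nectin3 and Cd96 are not given, because this difference chose them.

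Closer by, most genes were higher on 129 as deposited, while Nectin3, chosen for a lower 129 signal, was not. Of 19 genes from 1 to 4 Mb upstream that passed the same filter, these 2 included, 14 were higher on 129 in both clones as deposited, 3 were lower in both and 2 split, with a median log2 ratio of 0.62. In own reads 10 were higher in both, 4 lower in both and 5 split, with a median of 0.33. The share of genes over the whole chromosome with the same direction in both clones is not given here. Besides Nectin3, the genes lower in both clones by both measures were Cfap44, a cilia and flagella gene with deposited log2 ratios of -1.14 for A6 and -0.64 for E2, and Boc, a hedgehog co-receptor gene at -0.88 and -0.93. Cd200r3, of the CD200 receptor family, was lower in own reads only, at -0.17 and -0.49, against 0.81 and 0.13 as deposited. All of these but Nectin3 lie farther upstream than Cd96. Phldb2, which encodes a membrane-binding protein and lies next to Plcxd2, had 5122 reads on 129 against 3338 on CAST for clone A6, and 6339 on 129 against 4220 on CAST for clone E2, with deposited log2 ratios of 0.08 and 0.08. Neighbouring genes draw on shared windows, so they are not independent of each other.

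**Figure D4:**
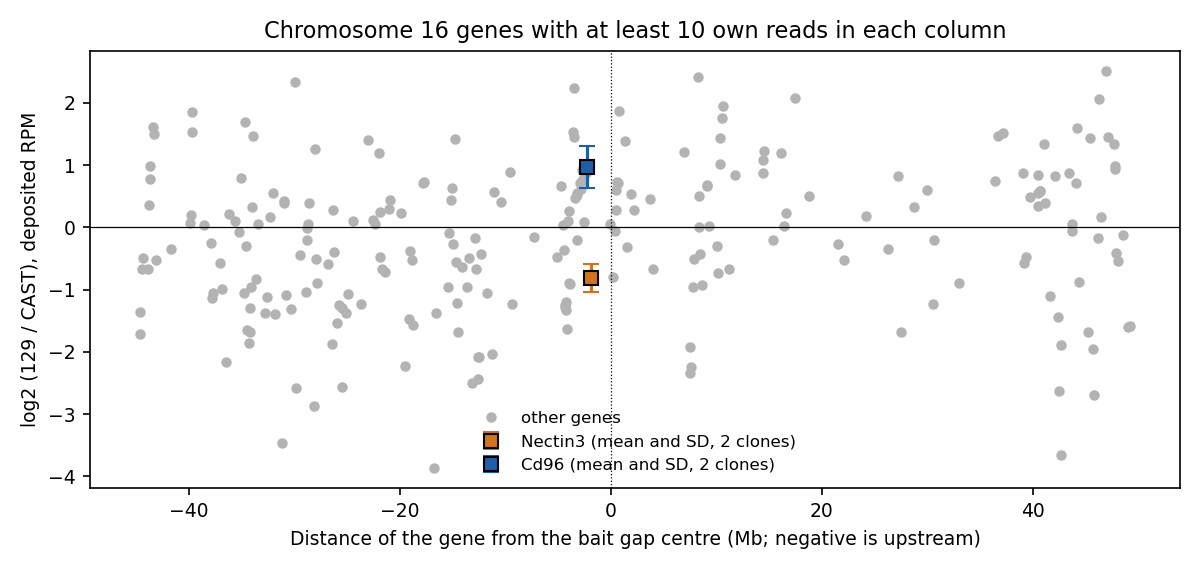
Deposited log2 ratio of 129 to CAST, mean of the clones (y axis), of 247 chromosome 16 genes against distance from the bait gap centre in Mb (x axis, negative is upstream); squares with SD whiskers are Cd96 (blue) and Nectin3 (orange) and grey points are the other genes. Cd96, at 0.97, and Nectin3, at -0.82, lie inside the range of the other genes.

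The genes whose own-read pattern over the 4 columns was most like that of each member were sought over chromosome 16. Likeness was the root mean square difference of log2 RPM after centring each gene on its own mean, over 246 genes and 4 columns, with a median of 0.98 for Nectin3 and 1.23 for Cd96. For Nectin3 the nearest were Myh11, a smooth muscle myosin gene, at 0.065, then Kalrn at 0.18, the acyltransferase gene Plaat1 at 0.19, Boc at 0.23 and the Rac exchange factor gene Tiam1 at 0.23. Boc was the only 1 of these 5 within 5 Mb of the bait. For Cd96 the nearest were the olfactory receptor gene Olfr183 at 0.18, the chloride channel gene Clic6 at 0.22, Dop1b at 0.29, the solute carrier gene Slc35a5 at 0.32 and the myosin gene Myh15 at 0.32. Of these, Slc35a5 lies 3.20 Mb upstream and Myh15 0.78 Mb downstream of the bait, and the other three lie more than 10 Mb away. Levels were not part of this measure, and Myh11 held 10.1 RPM on 129 and 17.1 RPM on CAST in A6, against 58.4 and 98.0 for Nectin3.

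Among the 13 other genes of the nectin pathway that were listed, 2 lie on chromosome 16. Tigit, an inhibitory receptor that competes for Pvr, lies 4.70 Mb upstream and had deposited log2 ratios of 0.51 for A6 and 0.81 for E2. Its own reads went the other way, with 279 on 129 against 288 on CAST for clone A6, and 134 on 129 against 190 on CAST for clone E2, log2 ratios of -0.62 and -1.09. Cadm2, a nectin-like synaptic adhesion gene, lies 18.8 Mb downstream and had 0.45 and 0.55 as deposited, and 0.48 and 0.66 in own reads. Cadm2 held 3000 reads on 129 against 1445 on CAST for clone A6, and 3026 on 129 against 1272 on CAST for clone E2. The 11 listed genes on other chromosomes held 0 to 435 own reads each over the 4 columns. Only Cd226 among them had at least 10 in each, with 57 on 129 against 39 on CAST for clone A6, and 19 on 129 against 48 on CAST for clone E2. Its own-read log2 ratios were -0.02 and -1.92. Afdn held 13 reads on 129 against 0 on CAST for clone A6, and 4 on 129 against 0 on CAST for clone E2. Of the 3 other pathway genes that passed the filter, Cadm2 had both deposited 129 values above both CAST values, Cd226 both below and Tigit overlapped. Over the 247 genes of chromosome 16, 25.1% were above and 33.2% below. Cd226 lies on chromosome 18, outside that background.

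Of 20 other immunoglobulin superfamily genes listed on chromosome 16, 17 passed the filter. Among these, 7 had both deposited 129 values above both CAST values, 5 both below and 5 overlapped, beside 25.1% above and 33.2% below over all 247 genes. The median deposited log2 ratio was 0.19, against -0.07 over all 247 genes. In own reads 5 were above, 6 below and 6 overlapped, beside 16.6% above and 33.6% below over all 247 genes. The own-read median was -0.22 against -0.31 over all genes, so the median of the list differed in sign between the measures. As deposited, Cd200r2, a gene of the CD200 receptor family, was at 2.15 in A6 and 2.33 in E2, and in own reads at 1.58 and 2.56. Igsf11, a homophilic adhesion gene, was at -0.73 and -1.72 as deposited and at -1.46 and -3.61 in own reads. Robo2, an axon guidance receptor gene, was at -0.40 and -0.31 as deposited and at -0.30 and -0.27 in own reads. Nectin3 and Cd96 were thus neither the lowest nor the highest of the list.

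**Figure D5:**
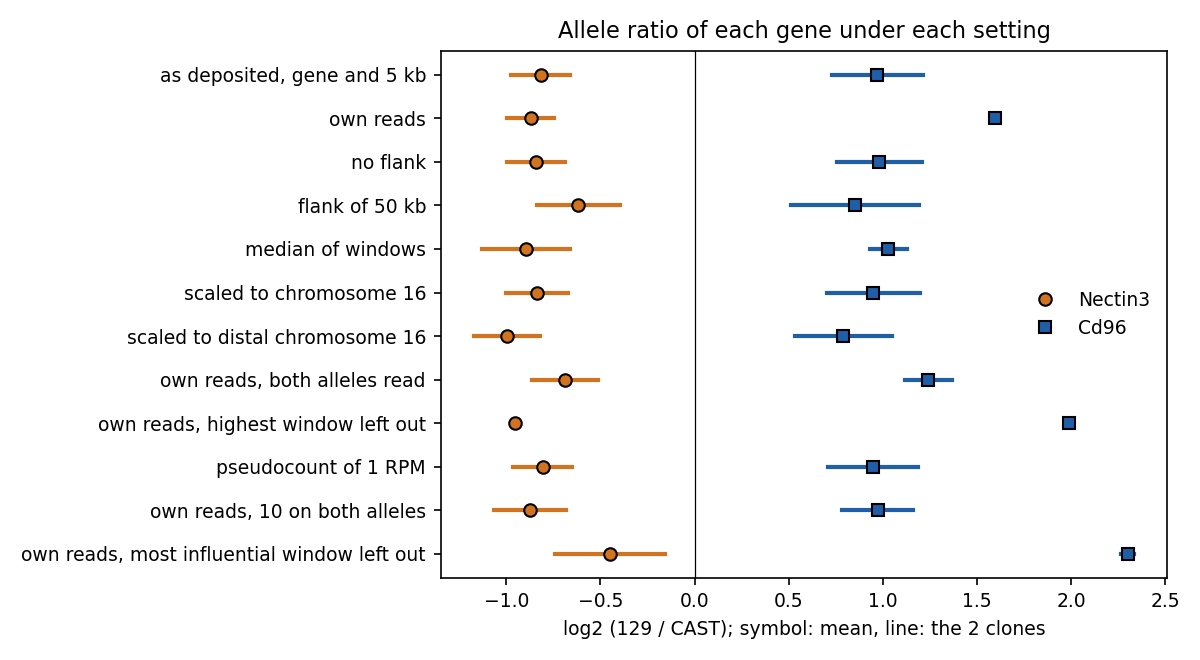
Log2 ratio of 129 to CAST (x axis) for Nectin3 (orange circles) and Cd96 (blue squares) under each setting (y axis); symbols are means and lines join the 2 clones. Over all settings drawn and both clones, Nectin3 lies between -1.17 and -0.16 and Cd96 between 0.51 and 2.34.

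Under every setting tried, Nectin3 was below 0 and Cd96 above 0 in both clones. With each window left out in turn included, the mean ratio ranged from -1.07 to -0.45 for Nectin3 and from 0.79 to 2.30 for Cd96.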

How the data were processed

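4C-seq was measured in 2 hybrid clones with 2 allele columns each. The deposited table is named by the authors as smoothed RPM of reads split between alleles at SNPs, in 5 kb windows of mm10. Bowtie2, mm9 and mm10 are listed in the submitters' processing notes. The aligner's version and the SNP set were not given in the sources used here. From their steps, the deposited RPM are running means over 30 windows, which take in 15 windows before the named one and 14 after it. All values (100%, tolerance 0.01) were whole multiples of a read divided by 30, and undoing the mean gave whole reads with 0 windows below 0. The inbred libraries, in mm9, are not used here.

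Gene values are means over windows that overlap the gene and 5 kb on both sides, with positions from RefSeq (GRCm38.p6), and ratios were taken within clones, without a pseudocount. The members and lists were chosen with earlier results of these data known. Named genes are the 2 members, both lists, the neighbouring genes and the 5 most alike; Cfap44 and Phldb2 were added after their values were seen. No test was made for the members. Scripts ran in Python 3.11.15 with pandas 2.3.3, scipy 1.17.1, numpy 2.4.6 and matplotlib 3.10.9, and edgeR 4.0.16 in R 4.3.3, tested on simulated data, was run on own reads with the read total behind each column's scaling, recovered from its values, as library size.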

Additional observations from a re-analysis of the deposited data

How the results depend on the processing

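The direction held for Nectin3, Cd96 and their difference under every alternative run, and most Nectin3 values stayed within 1 SD of -0.82. With the running mean undone, Cd96 was at 1.60 and the Cd96 minus Nectin3 difference at 2.47. The difference was 1.47 with a flank of 50 kb, 1.92 with the median of windows and 1.93 over windows with reads on both alleles. Without the window with most reads, Cd96 was at 1.99 and the difference at 2.94. Choices made after seeing the data were windows with 10 reads on both alleles, the window that moves a ratio most (for the far part of Nectin3 too), own-read tallies of upstream and listed genes, and edgeR. Leaving out the window that moved it most gave -0.45 for Nectin3 and 2.30 for Cd96. Leaving out each clone gave -0.98 to -0.66 for Nectin3, 0.73 to 1.21 for Cd96 and 1.70 to 1.87 for their difference.

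The counts of chromosome 16 genes with non-overlapping alleles, 62 higher and 82 lower on 129, followed the number of genes tested under each filter. They were 184 and 207 of 679 genes without a filter (27.1% and 30.5%), and 38 and 47 of 147 with 50 reads in each column (25.9% and 32.0%), near the 25.1% and 33.2% of the 247 genes. With the running mean undone, 41 were higher (16.6%). With 1 clone left, 108 to 116 genes were higher and 131 to 139 lower, since a single clone has no overlap to fail. edgeR called 10 and 16. The filter asks for reads on both alleles, so it removes genes read on 1 allele. The ratios of the 2 clones are paired within a library by construction. Precision is limited by 2 clones and by 16 and 7 windows with reads in the 2 genes.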

Other observations

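The windows around the 2 genes held values that belong to neither. The window at 46550001 to 46555000, towards the bait from Nectin3, held 1363 reads on 129 against 506 on CAST for clone A6, and 1863 on 129 against 646 on CAST for clone E2, log2 ratios of 0.86 and 0.94. Between the genes, the window at 46235001 to 46240000 was read on 129 alone, with 205 and 85 reads in A6 and E2, and the window at 46360001 to 46365000 held more on CAST in both clones, with 428 on 129 against 570 on CAST for clone A6, and 347 on 129 against 727 on CAST for clone E2. At 46165001 to 46170000 the clones split, with 1180 on 129 against 455 on CAST for clone A6, and 667 on 129 against 1011 on CAST for clone E2. Btla, an inhibitory receptor gene of lymphocytes farther upstream, held 1 read on 129 against 977 on CAST for clone A6, and 8 on 129 against 208 on CAST for clone E2, while its deposited log2 ratios were -1.47 and 0.51, so its running mean in E2 had the opposite direction to its own reads.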
